A study of Canis lupus familiaris with 13 samples.

Results

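The marker genes of T cells, natural killer (NK) cells, B cells and plasma cells were examined in biopsies of primary soft tissue sarcomas of dogs, malignant tumours of connective tissue. A list of 39 genes was matched by symbol to an Affymetrix array for the dog. Such an array measures a transcript with groups of short oligonucleotides, called probe sets, and a gene may have several. Of these genes, 36 had a probe set, among the 15115 genes named on the array, and all 65 of their probe sets were used, of 42924 tested. The T and NK cell genes made up 25 of the 36 and the B and plasma cell genes 11. ZAP70, KLRK1 and IRF4 were not analysed here. The metastatic group held 5 tumours (MET1 to MET5) and the non-metastatic group 8 tumours (NM1 to NM8), which had stayed without metastasis for at least 1 year. Every tumour was an untreated primary tumour, and its total RNA was labelled with biotin from the 3′ end. Separate dogs are not stated for the tumours, so p-values measure only the spread between these samples.

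T cells carry a receptor for antigen whose signal passes through the CD3 chains to the kinase LCK, while cytotoxic T cells and NK cells kill with granules of perforin and granzymes. B cells signal through an immunoglobulin held by CD79A and CD79B, and as they become plasma cells they lose CD20 (the product of MS4A1) and secrete antibody. In a solid tumour such transcripts are used to trace infiltrating lymphocytes, although some, such as CD4, CD38, IL7R and PRDM1, are also made by other cells. In RNA of whole biopsies fewer cells of a type and less RNA per cell cannot be told apart.

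Control signals set limits on all values. Bacterial poly-A transcripts added before labelling (the spike-in) gave signal in all 5 metastatic tumours and in NM5 to NM8, gave none in NM1, NM3 and NM4, and had lost their 5′ end in NM2. In the 3 tumours without spike-in its 36 probe sets, which then had no target, lay between 2.63 and 7.16 on the log2 scale with a median of 4.45. The 3′ signal of ACTB exceeded its 5′ signal, a gap that grows as RNA degrades, by 1.96 ± 0.593 (SD, 5 metastatic tumours) and by 1.47 ± 0.918 (SD, 8 non-metastatic tumours), and the gap was widest in NM2 at 3.14. Sample medians lay between 6.71 and 6.94. NM1, NM3 and NM4 had the smallest ACTB gaps (0.64, 0.39 and 0.88) and the lowest medians (6.74, 6.71 and 6.71) of the 13 tumours. Since all tumours without intact spike-in are non-metastatic, group differences are given for all 13 tumours and for the 9 with intact spike-in, 5 metastatic and 4 non-metastatic.

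No lymphocyte marker differed between metastatic and non-metastatic tumours past the threshold. Of the 65 probe sets 0 passed (limma, Benjamini-Hochberg adjusted p under 0.05), where 4.9% of all probe sets did, 1.56% higher and 3.34% lower. Among the 9 tumours with intact spike-in 0 passed as well, against 2.78% of all (0.578% higher and 2.2% lower). Leaving out NM2 alone, 0 passed, against 10.4% of all (4.03% higher and 6.4% lower). At an unadjusted p under 0.05 there were 8 of 65, against 23.7% of all probe sets, 4 of 65 in the 9 tumours, against 20.2%, and 12 of 65 without NM2, against 31.1%. The groups overlapped at all 65 probe sets, while they did not at 2.63% of all probe sets (1.18% with metastatic tumours higher and 1.45% lower). The smallest adjusted p belonged to CD79A and was 0.0688.

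Most markers lay slightly higher in metastatic tumours without passing the test. With each gene taken at its probe set of highest mean, 26 of the 36 differences (metastatic minus non-metastatic, log2) were positive and 10 negative, with a median of 0.22, against 0.05 and 56.1% positive for all named genes. The median was 0.22 for the T and NK genes, of which 19 of 25 were positive, and 0.15 for the B and plasma cell genes, of which 7 of 11 were. The B and plasma cell median was 0 without MET3, 0.08 without MET4 and 0.24 without MET2. With the 9 tumours of intact spike-in the medians were 0.11 and 0.12, against 0.03 for all genes. The direction held for most genes there, but the size of the T and NK median was smaller. After quantile normalization 22 of the 36 differences were positive (61.1%), close to the 55.9% of all named genes. At the probe sets of highest variance 27 of the 36 were positive, against 53.0% of all named genes. Neutrophil and mast cell markers lay higher too, with 7 of 8 positive and a median of 0.36 (0.39 over the 9 tumours), 0 past the threshold. After quantile normalization 7 of 8 were positive, with a median of 0.37. Without the tumours lacking spike-in signal 5 of 8 were positive with a median of 0.10. With the ACTB gap as covariate 5 of 8 were positive with a median of 0.20.

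**Figure D1:**
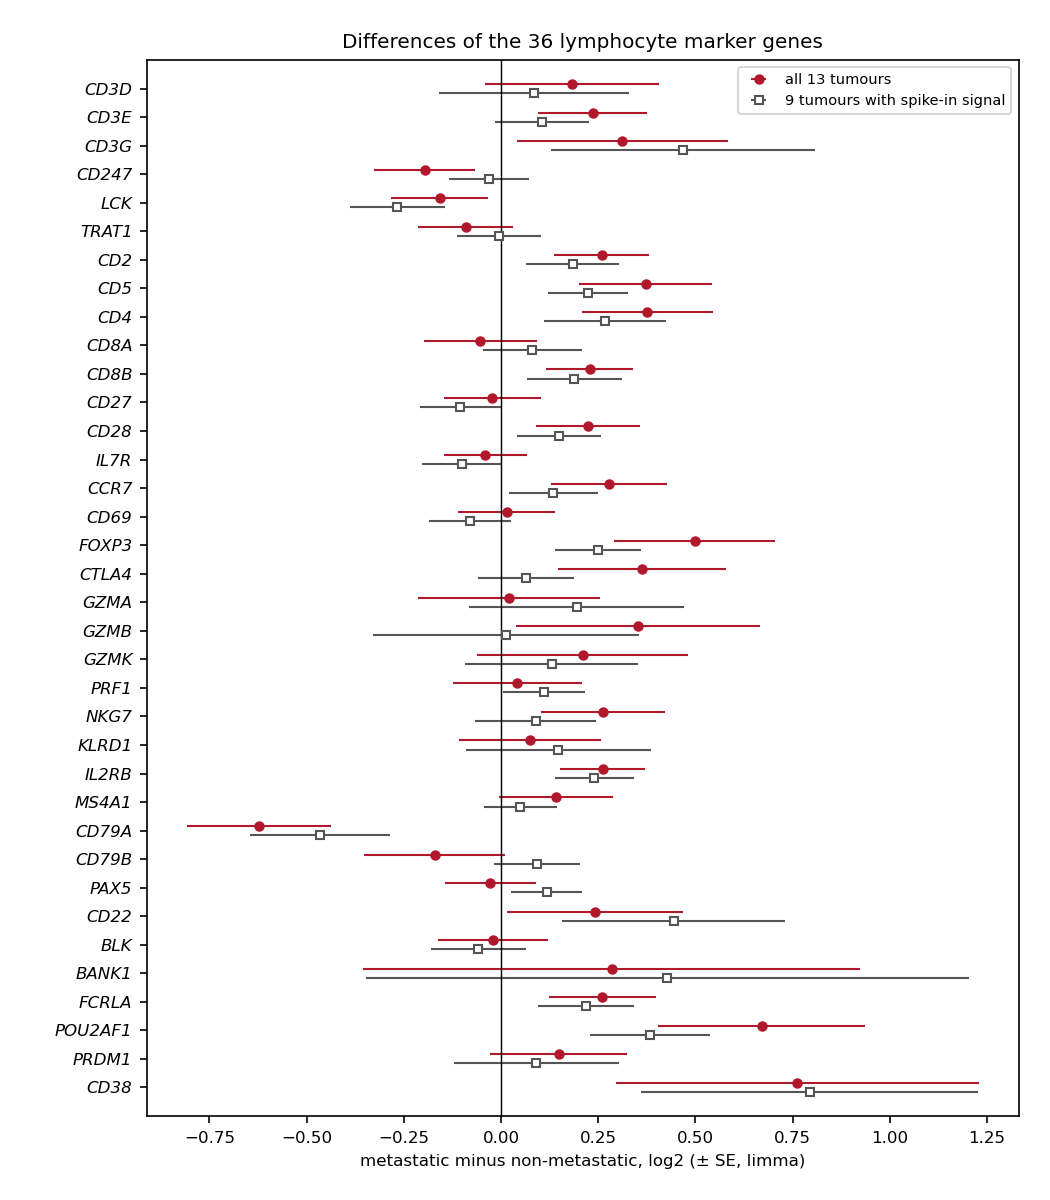
Difference of each of the 36 marker genes between metastatic and non-metastatic tumours (log2, horizontal axis, points with SE from limma), over all 13 tumours (filled) and over the 9 with intact spike-in (open). Most points lie right of 0, CD79A lies farthest left at -0.62, and 0 of the 36 genes passed the test in either comparison.

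The CD3 chains, which carry the signal of the T cell receptor into the cell, varied among tumours of both groups, CD3D most. At its probe set of highest variance CD3D read 7.16, 6.29, 6.18, 7.35 and 3.87 in MET1 to MET5. In the non-metastatic tumours its lowest value was 3.76 (NM1), its median 5.71 and its highest 7.16 (NM5). MET4, MET1 and NM5 were thus high and NM1 and MET5 low, and the groups overlapped over nearly their whole range. The difference was 0.54 ± 0.614 (SE, limma adjusted p = 0.602), and 0.18 ± 0.224 (SE, adjusted p = 0.632) at the other probe set of the gene. CD3E at its probe set of highest variance, where every value lay inside the range seen without target, read 6.70, 6.21, 6.16, 6.93 and 5.41 in MET1 to MET5, against a lowest value of 5.16 (NM1), a median of 5.83 and a highest value of 6.67 (NM5) in non-metastatic tumours. At its brighter probe set CD3E read 8.60, 8.47, 8.62, 8.65 and 8.14 in MET1 to MET5, against a lowest value of 7.88 (NM3), a median of 8.32 and a highest of 8.50 (NM5), and differed by 0.24 ± 0.140 (SE, adjusted p = 0.309). CD3G, with 1 probe set, read 5.85, 5.38, 5.16, 5.87 and 4.34 in MET1 to MET5, against a lowest value of 4.39 (NM8), a median of 4.91 and a highest value of 5.59 (NM4) in non-metastatic tumours. At the probe sets of highest variance MET4 and MET1 were the highest for each chain. NM5 was level with MET1 for CD3D and next for CD3E, and NM4 was next for CD3G. The lowest there were NM1 and MET5 for CD3D and CD3E and MET5 and NM8 for CD3G. The brighter probe sets gave another order. For CD3E MET4 and MET3 were highest and NM3 and NM1 (7.96) lowest, and for CD3D NM5 (7.17) lay above MET1 (7.13).

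The other members of the receptor complex were nearly level or lower in metastatic tumours, none past the threshold. CD247, the zeta chain, averaged 5.99 ± 0.0814 in the 5 metastatic and 6.19 ± 0.241 in the 8 non-metastatic tumours (SD), a difference of -0.20 (limma adjusted p = 0.359). LCK, the kinase that starts the signal, differed by -0.16 and by 0.05 at its 2 probe sets. TRAT1, an adaptor of the receptor, differed by -0.09 and by 0.02. All values of CD247 and TRAT1 lay inside the range of probe sets without target, and the 2 probe sets of LCK and those of TRAT1 ran against each other across the 13 tumours (r = -0.34 and r = -0.29).

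The CD3 genes varied together between tumours. Pearson correlations were tested for 17 pairs of genes (two-sided permutation tests with 100000 resamples, Benjamini-Hochberg over the pairs), each gene at its probe set of highest mean. CD3D correlated with CD3E across the 13 tumours (r = 0.81, adjusted p = 0.00671, rho = 0.79) and with CD3G (r = 0.77, adjusted p = 0.0147, rho = 0.79). Over the 9 tumours with intact spike-in the correlations were 0.84 and 0.85 (exact permutation test, adjusted p = 0.0478 for both). Without the 2 tumours farthest from the median of CD3D they were 0.70 and 0.80. At the probe sets of highest variance they were 0.96 and 0.86, with rho of 0.99 and 0.93. CD3E with CD3G was not among the 17 pairs, so it has no p. Its correlation was weaker over the 13 tumours, with r = 0.57 and rho = 0.65. It was 0.85 over the 9 tumours with intact spike-in, and 0.87 over 13 tumours at the probe sets of highest variance. The 3 genes lie next to each other in the dog assembly UU_Cfam_GSD_1.0, in the order CD3G, CD3D, CD3E.

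CD4, the coreceptor of helper T cells, also followed CD3E (r = 0.86, adjusted p = 0.00255, rho = 0.87). Over the 9 tumours with intact spike-in r was 0.78 and did not pass (exact permutation test, adjusted p = 0.0702), and at the probe sets of highest variance it was 0.58 (adjusted p = 0.198). CD8A, a chain of the cytotoxic T cell coreceptor, had r = 0.07 with CD3E and r = -0.11 with its partner CD8B over 13 tumours, and r = 0.56 and 0.36 over the 9 with intact spike-in, none past the threshold. CD3E with CD247 (r = -0.48), CD3E with LCK (r = 0.02), CD2 with CD5 (r = 0.51) and FOXP3 with CTLA4 (r = 0.44) did not pass, with adjusted p of 0.233, 0.958, 0.225 and 0.235. The correlation of CD3E with CD247 depended on the tumours used, with rho = -0.12, r = 0.18 without the 2 tumours farthest from the median of CD3E and r = 0.49 over the 9 with intact spike-in. The fourth pair that passed, CD3E with POU2AF1 of the B lineage (r = 0.70, adjusted p = 0.0379), did not pass by rank (rho = 0.56, adjusted p = 0.214), had r = 0.15 without the 2 tumours farthest from the median of CD3E and had r = -0.21 in the 9 tumours with intact spike-in.

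A gene outside the list ran almost parallel to the CD3 chains. RefSeq classes LOC480788 as a C region gene, a class that holds constant segments of immunoglobulins and of T cell receptors, and does not say in the table used here which of them it is. It was among the 10 genes whose values were most like the T cell receptor list as a whole, and 1 of its 5 probe sets is described here because its values were seen to follow CD3. This probe set read 8.80, 8.31, 8.24, 8.79 and 7.76 in MET1 to MET5, and in non-metastatic tumours its lowest value was 7.73 (NM8), its median 8.05 and its highest 8.74 (NM4). Its correlation was 0.90 with CD3D, 0.90 with CD3E and 0.96 with CD3G at their probe sets of highest variance. Over the 9 tumours with intact spike-in the correlations were 0.95, 0.99 and 0.98, and without the 2 tumours farthest from its median 0.86, 0.85 and 0.94 over the rest. Its other 4 probe sets had correlations of 0.26, -0.17, 0.61 and -0.24 with the mean of the CD3 chains. It was chosen after its values were seen, so no p is given, and its difference between the groups was 0.20 ± 0.218 (SE, limma adjusted p = 0.578).

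**Figure D2:**
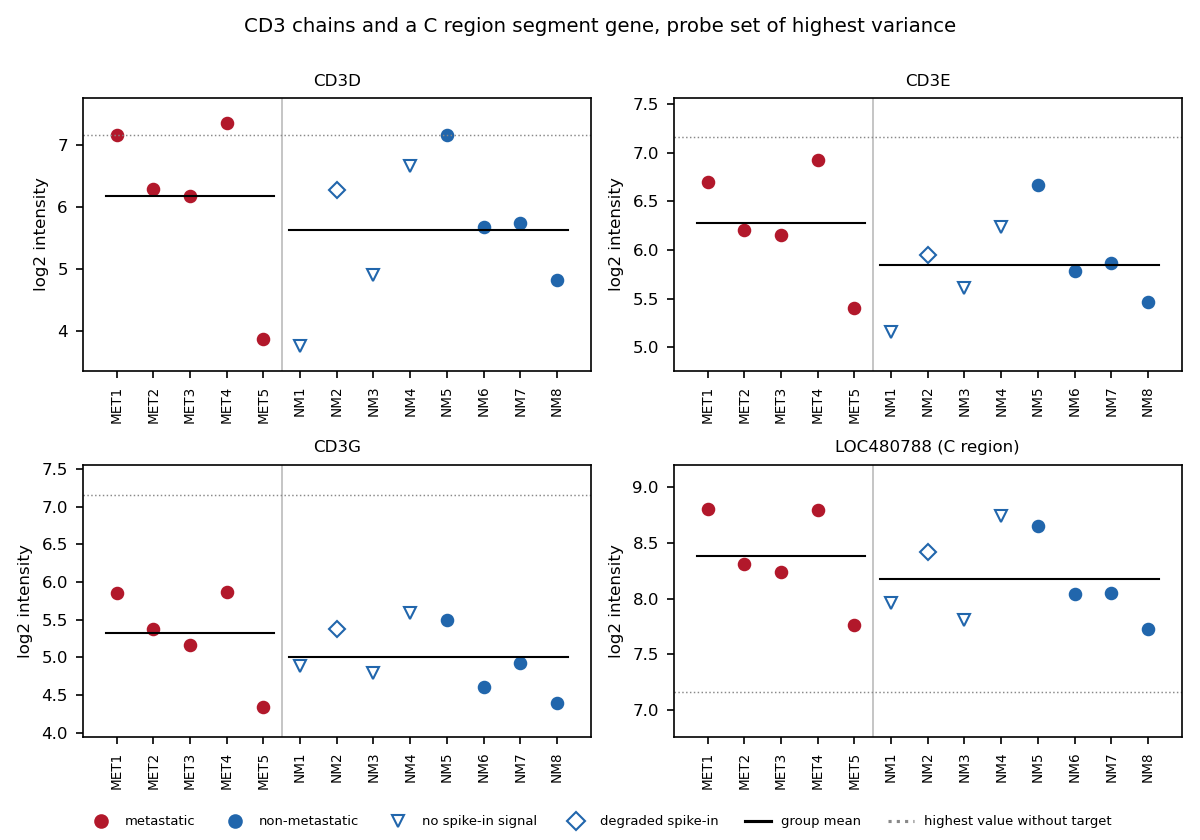
Log2 intensity of CD3D, CD3E and CD3G, at their probe sets of highest variance, and of the C region gene LOC480788 in each tumour. Metastatic tumours are left and non-metastatic right, with group means as black lines. The dotted line marks 7.16, the top of the range seen without target. MET1, MET4, NM4 and NM5 are high in each panel and MET5 and NM8 low, and the groups overlap.

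Other genes that followed the CD3 chains included some lymphocyte genes from the list, while other members did not follow them. With all genes taken at their probe sets of highest variance, a choice made after the data were seen, the mean correlation with CD3D, CD3E and CD3G over 13 tumours was highest for CLEC2B, a lectin-like ligand of an NK cell receptor in humans, at 0.85. HK1 (0.81), a hexokinase, CTLA4 (0.81), GPR171 (0.80), CD27 (0.79) and LOC475935 (0.79) came next, followed by CFAP58, LOC479600, CMTM7 and HLA-DRB1. Of these 10, CTLA4 and CD27 are members. Both were represented there by the dimmer of their 2 probe sets, and the 2 probe sets had r = 0.05 with each other for CTLA4 and r = -0.37 for CD27. All values of both dimmer probe sets lay inside the range seen without target. Other members had mean correlations near or below 0, among them CD247 (0.01), LCK (-0.04), CD8A (-0.05), IL2RB (-0.13) and CD79A (-0.26). The 5% of genes most like the CD3 chains held 6 of 10 T cell surface receptors, 2 of 7 cytotoxic and NK genes and 1 of 2 regulatory T cell genes. They held 0 of the 3 other receptor complex genes, 0 of 8 B cell genes and 0 of 3 plasma cell genes. The values of LOC475935 were 8.03, 6.55, 7.08, 7.55 and 5.96 in MET1 to MET5, against a range of 6.14 to 7.75 in non-metastatic tumours.

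The surface receptors of T cells gave 0 of 10 genes past the threshold. The difference was positive at 7 of the 10, against 56.1% of all named genes, with a median of 0.23 over 13 tumours and 0.14 over the 9 with intact spike-in. CD2, an adhesion receptor of T and NK cells, was the most uneven of them. At its probe set of highest variance it read 7.71, 6.25, 9.01, 8.46 and 5.91 in MET1 to MET5, and in non-metastatic tumours its lowest value was 6.17, its median 6.74 and its highest 7.80 (NM3). MET3 and MET4 stood above all others and MET5 was the lowest of the 13. The difference was 0.62 ± 0.469 (SE, limma adjusted p = 0.424), and 0.26 ± 0.122 (SE, adjusted p = 0.213) at the brighter probe set. CD8B, the partner chain of CD8A, was high in MET3 too at its probe set of highest variance, at 7.81, against 6.24 to 6.56 in the other metastatic and 5.82 to 6.84 in the non-metastatic tumours.

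CD5, a receptor that dampens T cell receptor signals, read 7.59, 7.69, 7.60, 7.68 and 7.42 in MET1 to MET5, against a lowest value of 6.67 (NM3), a median of 7.28 and a highest of 7.73 (NM2) in non-metastatic tumours. The metastatic values were close together and high, and NM2 lay above them. The difference was 0.37 ± 0.172 (SE, limma adjusted p = 0.206) and 0.22 in the 9 tumours with intact spike-in (adjusted p = 0.262). CD4 differed by 0.38 ± 0.168 (SE, adjusted p = 0.195), at 7.16 ± 0.295 in the 5 metastatic and 6.78 ± 0.288 in the 8 non-metastatic tumours (SD), and by 0.27 in the 9 tumours. For both genes NM1, NM3 and NM4, the tumours without spike-in signal, were the 3 lowest of all. CCR7, which guides T cells into lymph nodes, shared this order and differed by 0.28 (adjusted p = 0.268).

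CD28, the costimulatory receptor, differed by 0.22 ± 0.134 (SE, limma adjusted p = 0.314), and its correlation with CD5 was the highest among the pairs of members (r = 0.96, and 0.89 in the 9 tumours with intact spike-in). CD8A (-0.05), CD27 (-0.02), the interleukin-7 receptor IL7R (-0.04) and the activation marker CD69 (0.01) were nearly level between the groups at their brighter probe sets. Their second probe sets differed by 0.29, 0.23, -0.38 and -0.09, none past the threshold.

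Neither regulatory T cell gene passed the threshold. FOXP3, the transcription factor of regulatory T cells, read 4.92, 5.02, 4.77, 4.81 and 4.65 in MET1 to MET5, against a lowest value of 3.31 (NM3), a median of 4.48 and a highest of 4.68 (NM8) in non-metastatic tumours. The 4 highest of the 13 values were metastatic. The difference was 0.50 ± 0.207 (SE, limma adjusted p = 0.168), and 0.25 in the 9 tumours with intact spike-in (adjusted p = 0.249). CTLA4, an inhibitory receptor that competes with CD28, differed by 0.36 ± 0.216 (SE, adjusted p = 0.311) at its brighter probe set, where it was 0.06 in the 9 tumours (adjusted p = 0.810), and by -0.06 at the other. All FOXP3 and CTLA4 values lay inside the range of probe sets without target.

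Among genes of cytotoxic and NK cells, granzyme B (GZMB), a granule protease, was the most variable. At its probe set of highest variance it read 6.55, 5.51, 6.38, 6.95 and 4.85 in MET1 to MET5. In the non-metastatic tumours it read 4.04 in NM1, 6.29 in NM2, 3.98 in NM3, 4.89 in NM4, 5.76 in NM5, 5.83 in NM6, 6.89 in NM7 and 6.20 in NM8. MET4 and NM7 were highest, and the low values were those of the 3 tumours without spike-in signal and of MET5. The difference was 0.56 ± 0.507 (SE, limma adjusted p = 0.506) over 13 tumours and -0.12 in the 9 with intact spike-in. The 2 probe sets of GZMB followed each other closely (r = 0.94).

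NKG7, a granule membrane protein of cytotoxic cells, differed by 0.26, 0.55 and 0.49 at its 3 probe sets (limma adjusted p = 0.319, 0.180 and 0.183). Within the 9 tumours of intact spike-in these differences were 0.09, 0.23 and 0.28. The tumours without spike-in signal were the 3 lowest at all 3 probe sets. IL2RB, a chain of the interleukin-2 and interleukin-15 receptors, read 7.96, 8.08, 7.98, 7.89 and 7.99 in MET1 to MET5, against a lowest value of 7.43, a median of 7.74 and a highest of 7.89 in non-metastatic tumours. The groups met at a single value, and the difference was 0.26 ± 0.110 (SE, adjusted p = 0.174), and 0.24 in the 9 tumours (adjusted p = 0.231). Its other 3 probe sets differed by 0.08 to 0.16.

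The remaining genes of cytotoxic cells did not pass. The granzymes GZMA and GZMK differed by 0.02 and 0.21, perforin (PRF1), which forms pores in target cells, by 0.04, and KLRD1, an NK cell receptor chain also called CD94, by 0.08, with limma adjusted p between 0.653 and 0.965. GZMK was highest in NM4 at 7.67, and PRF1 in NM2 at 6.89, where the other non-metastatic tumours lay between 5.80 and 6.22. GZMA with GZMK (r = -0.33), GZMB with PRF1 (r = 0.16) and NKG7 with KLRD1 (r = 0.03) did not correlate past the threshold (permutation tests, adjusted p = 0.431, 0.846 and 0.958).

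**Figure D3:**
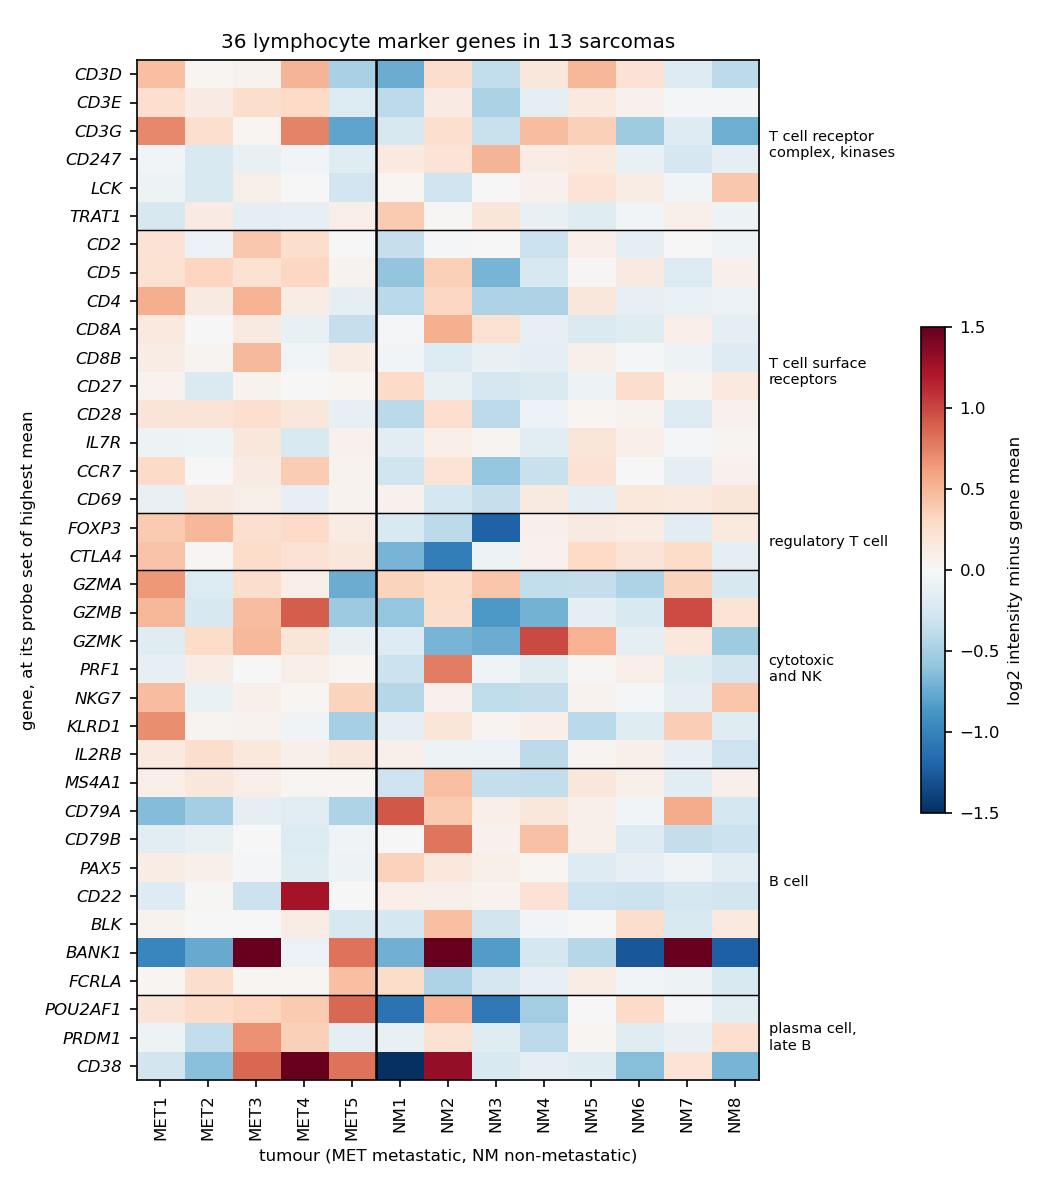
Log2 intensity of the 36 marker genes in each tumour minus the mean of the gene over the 13 tumours, with metastatic tumours left of the line and non-metastatic ones right and genes grouped by role. Colours end at 1.5 either way. BANK1, CD38 and GZMB are high in single tumours of both groups, CD22 is high in MET4, and NM1 and NM3 are low for many T cell genes.

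The B cell genes showed no shared direction, with 4 of 8 positive and a median difference of 0.06. CD79A, a signalling chain of the B cell receptor, read 3.87, 4.02, 4.39, 4.37 and 4.06 in MET1 to MET5, against a lowest value of 4.26 (NM8), a median of 4.66 and a highest of 5.46 (NM1) in non-metastatic tumours. The 3 lowest values were metastatic, and MET3 and MET4 lay within the non-metastatic range. The difference was -0.62 ± 0.186 (SE, limma adjusted p = 0.0688), and -0.47 in the 9 tumours with intact spike-in (adjusted p = 0.197), with adjusted p between 0.0555 and 0.245 under the alternative settings. Every value lay inside the range of probe sets without target. Its partner CD79B differed by -0.17 (adjusted p = 0.575) and did not follow it (r = 0.30, permutation adjusted p = 0.441).

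MS4A1, which encodes the B cell antigen CD20, averaged 6.71 ± 0.0606 in the 5 metastatic and 6.57 ± 0.296 in the 8 non-metastatic tumours (SD), a difference of 0.14 (limma adjusted p = 0.569). It ran against CD79A rather than with it, without passing (r = -0.39, permutation adjusted p = 0.310). PAX5, the transcription factor that keeps B cell identity, had 5 probe sets with differences between -0.24 and 0.11. The kinase BLK differed by -0.02 and FCRLA, an Fc receptor-like protein of B cells, by 0.26 at its brightest probe set and by -0.31 to 0.23 at its other 3. MS4A1, CD79B and BLK were highest in NM2, at 7.08, 5.47 and 7.01.

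CD22 and BANK1 were high in a few tumours. CD22, an inhibitory coreceptor of B cells, read 4.66, 4.46, 4.94, 7.77 and 4.93 in MET1 to MET5 at its probe set of highest variance, against 4.52 to 5.61 in non-metastatic tumours. MET4 alone was high, and at the other probe set it stood at 7.58, against 6.01 to 6.55 in the other 12 tumours. BANK1, a scaffold protein of B cell receptor signalling with 1 probe set, read 4.83, 5.05, 7.68, 5.71 and 6.62 in MET1 to MET5. In the non-metastatic tumours it read 5.08 in NM1, 7.77 in NM2, 4.96 in NM3, 5.54 in NM4, 5.38 in NM5, 4.53 in NM6, 7.71 in NM7 and 4.58 in NM8. NM2, NM7 and MET3 thus reached similar values, and MET4, high for CD22, was not among them.

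**Figure D4:**
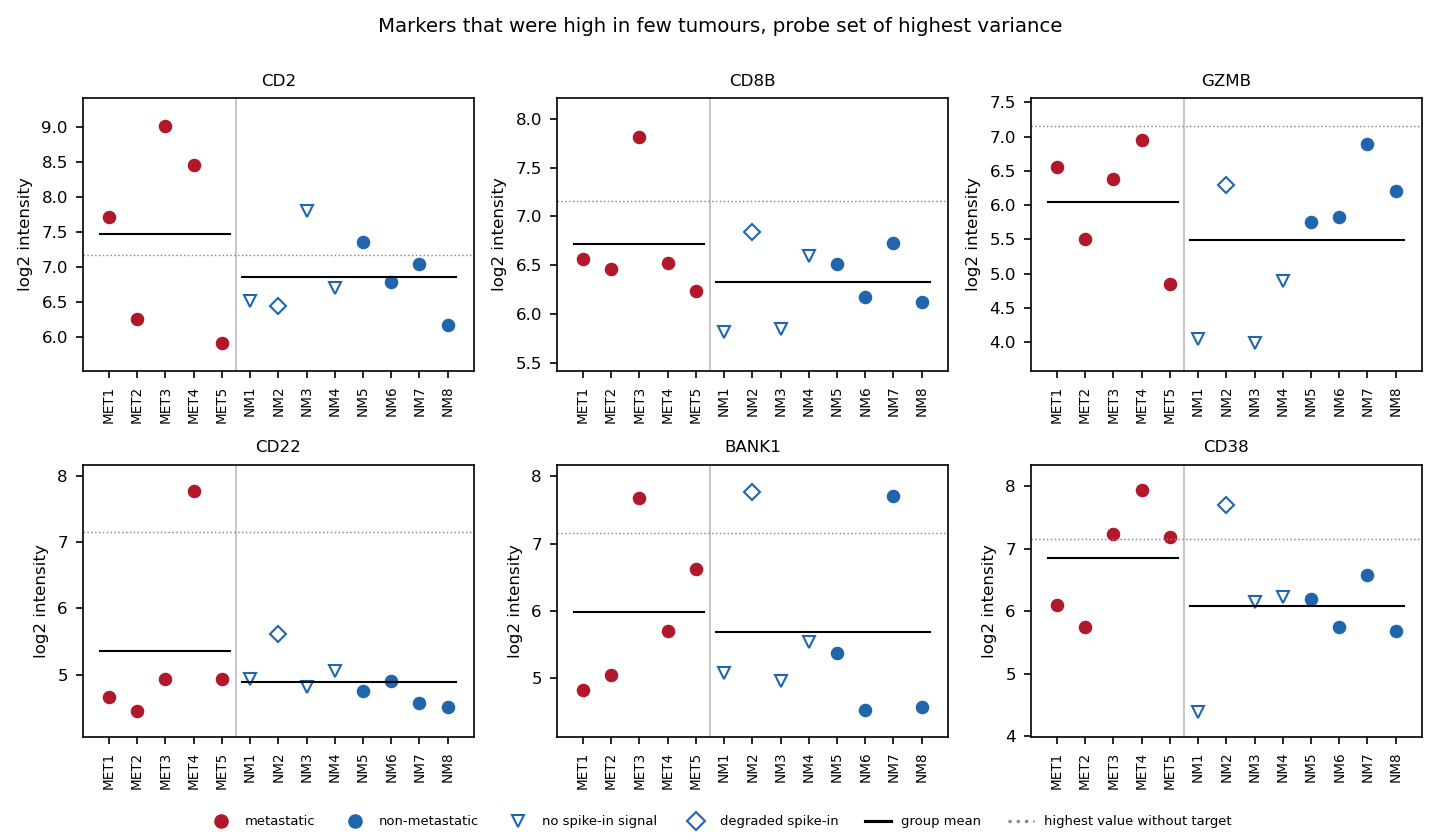
Log2 intensity of CD2, CD8B, GZMB, CD22, BANK1 and CD38 in each tumour, metastatic left and non-metastatic right, with open symbols for tumours without spike-in signal or with degraded spike-in and black lines for group means. MET4 alone is high for CD22 at 7.77, while MET3, NM2 and NM7 are high for BANK1 at 7.68, 7.77 and 7.71.

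All 3 genes of plasma cells and the late B lineage were higher in metastatic tumours without passing. POU2AF1, a coactivator of immunoglobulin transcription, read 7.60, 7.69, 7.72, 7.80 and 8.27 in MET1 to MET5. In the non-metastatic tumours it read 6.29 in NM1, 7.93 in NM2, 6.33 in NM3, 6.88 in NM4, 7.40 in NM5, 7.69 in NM6, 7.39 in NM7 and 7.25 in NM8. MET5 and NM2 were highest and the tumours without spike-in signal lowest. The difference was 0.67 ± 0.266 (SE, limma adjusted p = 0.153), and 0.38 in the 9 tumours with intact spike-in (adjusted p = 0.209).

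CD38, a surface enzyme abundant on plasma cells and on activated lymphocytes, read 6.10, 5.75, 7.23, 7.94 and 7.19 in MET1 to MET5, against a lowest value of 4.39 (NM1), a median of 6.17 and a highest of 7.69 (NM2) in non-metastatic tumours. MET4, NM2, MET3 and MET5 were the 4 highest, and 2 of the 5 metastatic tumours lay at the non-metastatic median or below. The difference was 0.76 ± 0.467 (SE, limma adjusted p = 0.324), with 0.73 at the other probe set, and both probe sets gave nearly the same order (r = 0.97). PRDM1, which drives the plasma cell programme, differed by 0.15 (adjusted p = 0.622) and was highest in MET3 at 7.97.

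Transcripts of antigen receptor segments gave a further readout of lymphocytes. RefSeq classes 16 genes on the array as V segment (12) or C region (4), with 44 probe sets. They were taken up after the data were seen, and the table does not name their receptor chain. Of the 44 probe sets 1 was called higher in metastatic tumours and 0 lower, against 4.9% of all probe sets called. Within the 9 tumours of intact spike-in 3 were higher and 0 lower, against 2.78% of all. The 3 belong to LOC607467, a V segment gene with 14 probe sets, and carry the same cluster name on the array, so they may read the same transcripts.

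The 14 probe sets of LOC607467 did not move alike. At 4 of them, the 3 of the same cluster name included, each metastatic tumour lay above 7 of the 8 non-metastatic tumours. The share of all probe sets that do so was not counted, so this count has no background to be read against. Over 13 tumours 11 of the 14 differences were positive and 3 negative (-0.50, -0.26 and -0.02), and over the 9 with intact spike-in 8 were positive and 6 negative. At the probe set called over all 13 tumours it read 9.92, 10.58, 8.89, 10.61 and 9.52 in MET1 to MET5. In the non-metastatic tumours it read 5.38 in NM1, 10.69 in NM2, 6.85 in NM3, 6.49 in NM4, 7.88 in NM5, 6.08 in NM6, 7.89 in NM7 and 5.59 in NM8. NM2 was the highest of the 13. The difference was 2.80 ± 0.730 (SE, limma adjusted p = 0.0428), and 3.04 ± 0.566 (SE, adjusted p = 0.0273) in the 9 tumours with intact spike-in. The call held in 2 of the 13 fits without a single tumour, those without NM2 and without NM7, and was lost in the others. Within the 9 tumours 2 more of its probe sets were called, at 1.36 and 2.09 (adjusted p = 0.0486 and 0.0260). Of the 44 segment probe sets 0 were called there without MET1, without NM6 or without NM8, against 1.68%, 1.46% and 0.603% of all probe sets. Without MET3 6 were called, against 2.32% of all. Over the non-metastatic tumours 16 of the 44 differed between those with and those without spike-in signal, against 21.7% of all probe sets.

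LOC608238, a C region gene with 2 probe sets, read at the brighter one 11.01, 11.97, 10.22, 11.75 and 11.72 in MET1 to MET5, against a lowest value of 9.68 (NM4), a median of 9.93 and a highest of 12.55 (NM2) in non-metastatic tumours. NM2 was again the highest, and 4 of the 5 metastatic tumours stood above the other 7 non-metastatic ones. The difference was 0.98 ± 0.451 (SE, limma adjusted p = 0.207), and 1.07 in the 9 tumours with intact spike-in (adjusted p = 0.151), neither past the threshold. Its other probe set differed by 0.33 (adjusted p = 0.311) and by 0.13 in the 9 tumours, with MET2 highest at 6.45, NM7 next at 6.38 and NM2 at 6.31. POU2AF1 followed LOC608238 with r = 0.72 and LOC607467 with r = 0.71 over 13 tumours, and with 0.60 and 0.54 in the 9. CD38 had r = 0.60 and 0.71 with them (0.38 and 0.53 in the 9), and MS4A1 0.73 and 0.62 (0.21 and 0.12 in the 9). The plasma cell genes PRDM1 (0.13 and 0.23) and JCHAIN (-0.02 and -0.13) had low values, CD79A had -0.34 and -0.46, and CD3D had 0.31 and 0.49. JCHAIN was read here at a probe set other than its brightest, which gives its group difference below. Its correlations at the brightest were not computed, so JCHAIN as a gene is not shown to run apart from the segment genes. These correlations have no p because the genes were chosen after their values were seen.

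**Figure D5:**
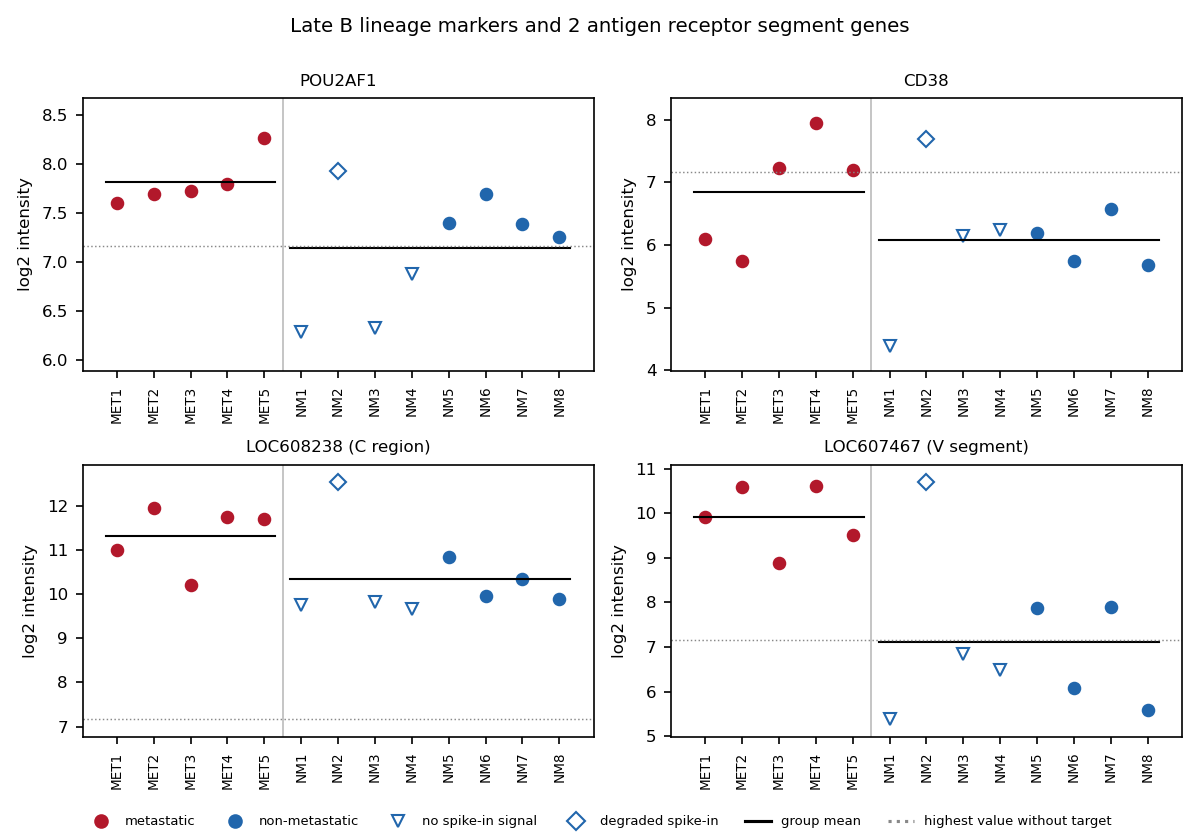
Log2 intensity of POU2AF1, CD38 and the segment genes LOC608238 and LOC607467 in each tumour, metastatic left and non-metastatic right, with black lines for group means. NM2, the tumour with degraded spike-in, lies among or above the metastatic tumours in each panel, and the 5 metastatic values of LOC607467 (8.89 to 10.61) lie above the other 7 non-metastatic values (5.38 to 7.89).

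As a whole the markers did not vary as a single block. Over the 300 pairs of T and NK genes the median correlation across the 13 tumours was 0.14, with 54 pairs above 0.5 and 16 below -0.5, and the median correlation of these genes with all other named genes was 0.04. Over the 55 pairs of B and plasma cell genes it was 0.04, and between T or NK and B or plasma cell genes 0.07 over 275 pairs. At the probe sets of highest variance the medians were 0.23 and 0.27. The closest pairs were CD5 with CD28 (r = 0.96), CD3E with CD28 (0.92), CD3E with CD5 (0.89) and CD5 with CCR7 (0.89). With intact spike-in these 4 were 0.89, 0.82, 0.63 and 0.60. CD5 with POU2AF1 had r = 0.88 over 13 tumours and 0.32 over the 9. TRAT1 ran against CD3D (r = -0.80) and CD3E (r = -0.77). Pairs picked as the closest or most opposed of many are given as values only.

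No tumour was high for all markers. NM2 held the highest value of 7 of the 36 genes, 4 of them of the B lineage, MET4 of 6 and MET1 of 5. NM3 held the lowest value of 10 genes, 9 of them T or NK genes, and NM1 of 7. MET3 lay above the mean of the gene for 23 of 25 T and NK genes, MET1, MET4 and NM5 for 18, and NM1 for 7. For B and plasma cell genes NM2 lay above the mean for 10 of 11 and every other tumour for 3 to 7. These counts are for the probe sets of highest mean. At the probe sets of highest variance NM1 held the lowest value of 9 genes and NM3 of 8. There MET3 and NM5 lay above the mean for 20 of 25 T and NK genes. MET1, MET4 and NM2 did so for 19, NM4 for 14 and NM1 for 5. The shares over all named genes were not counted, so these tallies have no background to be read against. NM2, with degraded spike-in and the widest ACTB gap, was also the highest tumour for several lists of other cells, with medians over gene-centred values of 1.00 for endothelial, 1.35 for epithelial, 0.79 for pan-leukocyte, 0.75 for neutrophil and mast cell and 0.51 for dendritic cell genes. The part of RNA quality in these values was not tested. The genes whose values were most like the B cell list, LOC477528, PRRG4, AMBN and CMKLR1 among them, had mean correlations of 0.35 to 0.36 with it over 13 tumours, all 10 were highest in NM2, and in the 9 tumours these correlations were 0.14 to 0.25.

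Within the non-metastatic group the markers differed by spike-in class less often than all probe sets did. NM5 to NM8 were compared with NM1, NM3 and NM4 (limma, adjusted p under 0.05), a comparison added after the data were seen. Of the 65 probe sets 8 (12.3%) were called, 7 higher and 1 lower in tumours with spike-in signal. Of all probe sets 21.7% were called, 15.8% higher and 5.85% lower. At an unadjusted p under 0.05 there were 16 of 65 (24.6%), against 37.3%. Those higher were GZMB (1.87, adjusted p = 0.00967), POU2AF1 (0.93, adjusted p = 0.0131), 2 probe sets of NKG7 (0.83 and 0.68), 1 of PAX5 (0.63), CD5 (0.52) and CD4 (0.41), and 1 of CD22 was lower (-0.42). NM1, NM3 and NM4 were the 3 lowest tumours at 9 of the 65 probe sets, against 17.7% of all, and the 3 highest at 0, against 3.85%. The part of the spike-in class in the differences over 13 tumours was not tested beyond the values given for the 9.

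Low signal and disagreement between probe sets limit single markers. At 24 of the 65 probe sets the highest of the 13 values exceeded 7.16, the top of the range seen without target, against 59.2% of all probe sets. Every value did so at 7, against 28.2% of all, and these read CD3E, CD2, IL7R, NKG7 (2 probe sets), IL2RB and FCRLA. A value within that range is not shown to lack signal. The range over the 13 tumours was 2 or more at 8 of the 65, against 19.2% of all. Of the 21 genes with several probe sets, the 42 pairs of probe sets had a median correlation of 0.31, against 0.48 for pairs of all named genes. CD38, CD3D, GZMB and CD22 had pairs above 0.8, at 0.97, 0.95, 0.94 and 0.90. In 10 genes no pair reached 0.5. FCRLA (-0.69), CD69 (-0.52), CD27 (-0.37), LCK (-0.34), TRAT1 (-0.29) and CD8A (-0.21) were among those with probe sets that ran in opposite directions.

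Further genes of the same cells showed few changes, where 5.35% of all named genes passed. Of 32 other measured T and NK genes 0 rose and 1 fell at the probe set of highest mean, and 25 differences were positive, with a median of 0.16. STAT4, which transmits the interleukin-12 signal in T helper 1 cells, averaged 6.88 ± 0.571 in the 5 metastatic and 8.37 ± 0.719 in the 8 non-metastatic tumours (SD) and fell by 1.49 ± 0.346 (SE, limma adjusted p = 0.0274). It also passed in the 9 tumours with intact spike-in (-1.42, adjusted p = 0.0402), but not in 7 of the 13 fits that leave out a single tumour (MET1, MET2, MET3, NM1, NM3, NM4 or NM8). TBX21, a factor of T helper 1 and NK cells, did not pass over 13 tumours (0.09, adjusted p = 0.814) and passed in the 9 tumours (0.49, adjusted p = 0.0431) and with the spike-in class as a block (0.49, adjusted p = 0.0330). Of 23 other B and plasma cell genes 1 rose and 1 fell. SDC1, a proteoglycan of plasma cells and of epithelium, rose by 0.57 ± 0.130 (SE, adjusted p = 0.0256) and by 0.69 in the 9 tumours, and did not pass without MET1 or MET4. SSR4, a subunit of the translocon-associated complex through which secreted proteins enter the endoplasmic reticulum, fell by 0.53 ± 0.139 (SE, adjusted p = 0.0439), failed in 11 of the 13 fits (all but those without NM2 or NM6) and did not pass in the 9 tumours (-0.43). XBP1, the transcription factor of antibody secretion, differed by -0.59 (adjusted p = 0.0516), and JCHAIN, which joins antibody units, differed by 0.24 (adjusted p = 0.594).

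Of the lists of other cells, few genes passed the test. Of 14 pan-leukocyte genes 0 passed, with PTPRC, which encodes CD45, at 0.23 (limma adjusted p = 0.320) and LSP1 at 1.42 (adjusted p = 0.142). Of 9 chemokines that draw lymphocytes 0 passed, with CCL19, a ligand of CCR7, at -2.07 (adjusted p = 0.0664) and CXCL12 at -1.51. Of 14 macrophage, 8 neutrophil and mast cell, 9 endothelial, 3 epithelial and 5 muscle genes 0 passed. Of 7 dendritic cell genes 1 rose, ZBTB46 (0.76, adjusted p = 0.0479), which failed in 10 of the 13 fits, all but those without NM2, NM5 or NM7. Of 8 fibroblast genes 1 fell, DCN (-1.29, adjusted p = 0.00429), which kept its call in all 13. All 5 muscle genes had positive differences (median 0.78), and after subtraction of each gene's mean their median was highest in MET5, the tumour lowest for CD3G, at 2.32. Without MET5 3 of the 5 muscle genes had positive differences, with a median of 0.13. The macrophage genes were highest in MET3 (0.89) and MET4 (0.68) and lowest in MET2 (-1.17). The part of these cells in the levels of the lymphocyte markers was not tested.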

How the data were processed

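The authors deposited 1 table of processed values per probe set for all 13 arrays. The deposited log2 intensities were made by the authors with software, background correction and normalization not given in the sources used here, and the log2 scale was read from their range. Per the labels' protocols, RNA of untreated tumours was purified with an RNeasy kit and labelled by a 1-cycle 3′ kit. The number of arrays limits the precision. Of 43035 probe sets 111 Affymetrix controls were left out. The platform annotation gave 1 symbol for 29254 tested probe sets, while 439 had several and 13231 had none. The identifiers of 35 of 36 members were found in RefSeq (all but NKG7). Differences were tested by two-sided moderated statistics (functions lmFit and eBayes of limma 3.58.1 in R 4.3.3), with Benjamini-Hochberg adjustment over 42924 probe sets and a threshold of 0.05. On simulated data for 5 against 8 samples, 66 of 100 probe sets changed by 1 on the log2 scale and 96 of 100 changed by 2 were recovered, with 12 false calls among 42924. A tumour had spike-in signal where the 3′ spike-in probe sets averaged above 6, and an intact one where their excess over the 5′ ones was under 2. Correlations used Python 3.11.15 and scipy 1.17.1. Any member may be named. Of each other list the 4 of smallest p and those past the threshold are named, and the 10 genes most like the T cell receptor and B cell lists. Members and lists were chosen with earlier results of these data known. Alternatives changed the samples, covariates, normalization, filter and probe set per gene.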

Additional observations from a re-analysis of the deposited data

Results flagged for a closer look

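In 72 groups of values (36 genes in each of 2 groups of tumours) 5 held a value far from the others by Dixon's test, which chance gives in about 1 of 20. CD22 stood at 7.58 in MET4, where the next highest metastatic value was 6.35. CD28 stood at 5.32 in MET5, where the next lowest was 5.62, and CD27 at 6.92 in MET2, where the next lowest was 7.15. Among non-metastatic tumours FOXP3 stood at 3.31 in NM3, a tumour without spike-in signal, where the next lowest was 4.14. PRF1 stood at 6.89 in NM2, the tumour with degraded spike-in, where the next highest was 6.22. No tumour held more than 1 of the 5.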

How the results depend on the processing

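Between metastatic and non-metastatic tumours 0 member probe sets and 0 member genes passed in each alternative and without each tumour in turn, whereas 8 member and 16 segment probe sets differed by spike-in class among non-metastatic tumours, where 21.7% of all did. Of 731 differences of single members under 21 alternatives 56 changed sign, in 17 genes, and 0 passed the threshold. The median difference of T and NK genes was 0.092 without the tumours lacking spike-in signal and 0.18 to 0.26 without single tumours, and that of B and plasma cell genes 0 to 0.24 (0 without MET3). The median correlation of T and NK genes was 0.0626 after quantile normalization, 0.23 at probe sets of highest variance and 0.11 to 0.17 without single tumours. At probe sets at or above the median level it was 0.33, over only 8 genes and 28 pairs. The median correlation of B and plasma cell genes was 0.16 on deviations from group means and 0.27 at probe sets of highest variance. It was 0.18 without the tumours lacking spike-in signal and 0.01 to 0.08 without single tumours. At probe sets at or above the median level the B and plasma cell value was 0.18, over only 3 genes and 3 pairs. Of 17 pairs 4 passed, against 2 in the 9 tumours with intact spike-in, 2 at probe sets of highest variance, 2 without the tumours lacking spike-in signal and 3 to 6 without single tumours. Of all probe sets 2104 passed, against 1192 in the 9 tumours, 1367 with the ACTB value as covariate, 207 without the tumours lacking spike-in signal and 856 (without MET1) to 4478 (without NM2) without single tumours. With the replicate number as a block 733 passed. Same-numbered tumours did not deviate together (r between -0.0086 and 0.078), so the numbers were not taken to pair the samples. Low values of r cannot exclude a pairing. Of the 44 segment probe sets 1 passed, where 4.9% of all did, against 3 in the 9 tumours (2.78% of all). With the spike-in class as a block 3 passed (3.87% of all), and 2 after quantile normalization (4.52%). The count was 0 with the ACTB covariate (3.18%), 0 with the replicate block (1.71%) and 0 without the tumours lacking spike-in signal (0.482%). Without single tumours it was 0 to 6 (6 without NM2, where 10.4% of all passed). The cause of these changes was not tested. Signal within the range of probe sets without target, 5 metastatic tumours and a spike-in class that coincides in part with the groups limit every value.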
